A study of Homo sapiens with 2 samples.

Results

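PLC-8024 is a human hepatocellular carcinoma (HCC) cell line, and RNA was sequenced from cells with a control vector (PLC-8024-CTR, 1 library) and from cells overexpressing GDF1 (PLC-8024-GDF1, 1 library). GDF1 is a secreted ligand of the TGF-β superfamily. It was delivered by lentivirus and stably transduced cells were selected with puromycin, and whether a line was a clone or a pool is not given in the sources used here. Both lines share the PLC-8024 background, and the labels give no time point. The genes examined here encode the machinery of mitosis. They were chosen by name from 53 listed symbols, and all 53 were found among the 58174 genes of the files. Each of them reached at least 1 TPM (an abundance corrected for gene length and sequencing depth) in PLC-8024-CTR. The comparison bears on cell division, since the study asked how GDF1 affects the proliferation of HCC cells.

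Mitosis is driven by CDK1 bound to cyclin B, which is switched on by the CDC25 phosphatases and supported by the polo and Aurora kinases. Chromosomes are compacted by condensin and attached to spindle microtubules through kinetochores, and the spindle checkpoint holds back the anaphase-promoting complex until every kinetochore is attached. Transcripts of these genes accumulate in the G2 and M phases, so in bulk RNA fewer cycling cells and less RNA per cycling cell cannot be told apart.

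The overexpressed gene was checked before the mitotic genes. GDF1 itself had 2.1 TPM in the control library and 4.64 TPM in PLC-8024-GDF1. CERS1, whose exons contain the GDF1 coding sequence, was listed at 13.3 and 9612 TPM. Of 10 hepatocyte and HCC markers, 10 reached 1 TPM in the control library and 9 did so in PLC-8024-GDF1, where TTR was at 0.34 TPM. Of these 10 markers, 5 were over 2-fold lower (50%), against 9.61% of all genes. They were TTR (-2.61 on the log2 scale), APOA1 (-1.93), AFP (-1.59), ALB (-1.18) and HNF4A (-1.02). The median of the 10 was -0.94, and the summed level was 10518 TPM in the control library and 7686 TPM in PLC-8024-GDF1. KRT8 and KRT18 lay above 0 (0.32 and 0.28). With the trend of the change with GC content removed, 3 of the 10 markers were lower and their median was -0.71. The 53 mitotic genes then had a median of -0.12, with 5.66% lower. The paper lists AFP among the liver progenitor markers, which it reports as induced by GDF1 overexpression. It lists ALB and TTR, both lower here, among the hepatic markers, which it reports as inhibited. Its evidence was replicated qPCR and protein measurements, beside 1 library per condition here. Of 12 fibroblast, endothelial and immune markers, 3 reached 1 TPM in each library (COL3A1, PECAM1 and CD68), and the summed level of the 12 was 60.3 TPM in the control library and 38.3 TPM in PLC-8024-GDF1. COL1A2, DCN, VWF and PTPRC were at 0.0001 TPM, the value that stands for 0, in both libraries. The part of these markers in the results was not tested. Replicates were lacking, so no test was possible and every value describes these 2 libraries.

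Of the 53 mitotic genes, 44 (83.0%) were listed lower in PLC-8024-GDF1, as were 63.3% of all genes compared. Once the trend with GC content was removed, 36 of the 53 lay below 0, and so did 5905 of 11792 protein-coding genes. The log2 change set TPM + 1 in PLC-8024-GDF1 over TPM + 1 in the control library, on which scale the pseudocount of 1 makes the change of low genes smaller. A gene is called lower or higher where this value passed 2-fold. Of the 53 genes, 10 were lower (18.9%), against 9.61% of the 14929 genes that reached 1 TPM in either library. The 10 were NUSAP1, ECT2, NCAPH, KIF23, BUB1B, NCAPD2, ANLN, HMMR, BUB1 and BIRC5. Only 2 of the 53, CDC25B and AURKA, were higher (3.77%), against 4.82% of all genes. The other 41 stayed within 2-fold, 34 of them below 0 and 7 above. The median of the 53 was -0.54, and the median of all 14929 genes was itself -0.20, so 42 of the 53 lay below the middle of the table.

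The scale of the comparison mattered. When the TPM of PLC-8024-GDF1 was multiplied by 1.154, which sets the median ratio of genes with at least 5 TPM to 0, 8 mitotic genes were lower and 2 higher, against 6.85% and 6.97% of all genes, and the median of the 53 was -0.35. When the trend of the change with GC content was subtracted, 3 were lower and 2 higher (5.66% and 3.77%), against 5.81% and 5.61% of the 11792 protein-coding genes with a GC value, and the median was -0.12. The share of mitotic genes past 2-fold was thus close to that of all genes after the GC trend was removed. The 3 that stayed lower were NUSAP1, ECT2 and NCAPH. Both AURKA and CDC25B stayed higher under each of these scalings. Removing the trend with transcript length left 4 lower and 2 higher, against 6.05% and 6.05% of the 11792 protein-coding genes. Removing both trends left 3 and 2, against 5.89% and 5.35% of them. With a pseudocount of 0.1, 11 were lower and 2 higher, against 15.5% and 7.82%, and on the plain ratio 12 and 2, against 16.3% and 8.23%. A minimum of 5 TPM left 44 mitotic genes, 10 of them lower and 2 higher (22.7% and 4.55%), against 10.8% and 4.89%. Their median was -0.52. Other gene sets changed only the background, which was 2.47% and 1.24% with no minimum and 10.5% and 4.06% among protein-coding genes.

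**Figure D1:**
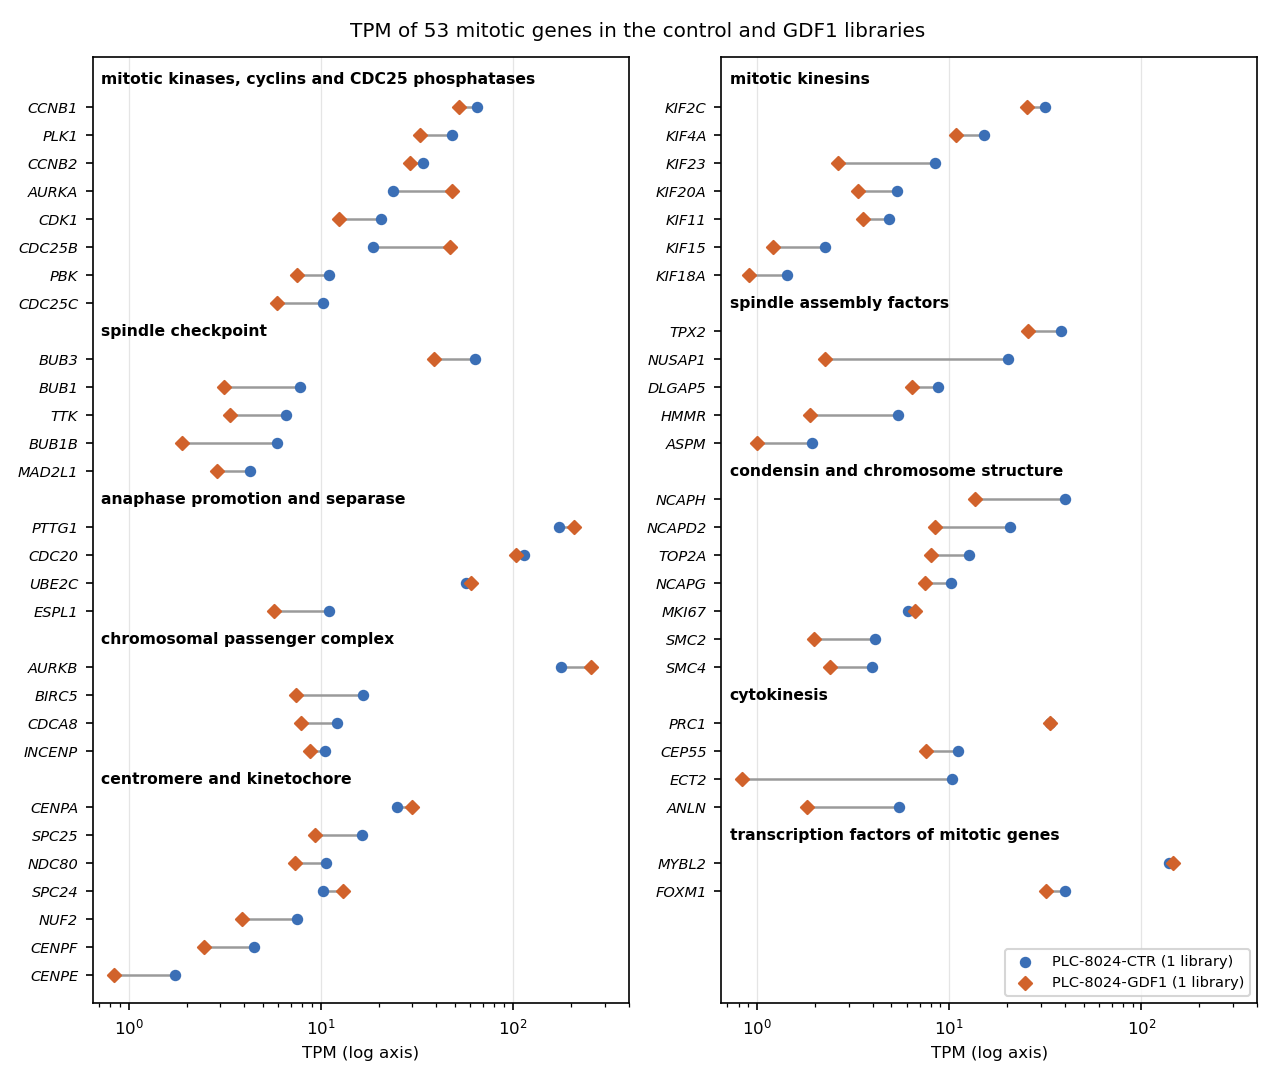
TPM of the 53 mitotic genes on a log axis, grouped by role, with circles for the 1 PLC-8024-CTR library and diamonds for the 1 PLC-8024-GDF1 library; there are no replicates and so no error bars. Diamonds lie to the left of circles for 44 genes, with the widest gaps at ECT2 (10.3 and 0.83 TPM) and NUSAP1 (20.2 and 2.26 TPM), and to the right by over 2-fold at AURKA and CDC25B.

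Mitotic genes are known to share promoter elements: the cell cycle genes homology region (CHR), a short element bound by the MuvB core of the DREAM and MYBL2-MuvB complexes, and the CCAAT box bound by NF-Y. Sequences from 250 bases before to 50 bases after gene starts, taken from RefSeq on GRCh38.p14, were matched by symbol for 45 of the 53 genes. AURKA, BIRC5, BUB3, FOXM1, PBK, TPX2, TTK and UBE2C were not matched. The letters TTTGAA, the common form of the CHR, were looked for on both strands. They stood in at least 1 window of 34 of the 45 genes (75.6%), and in 18.2% of the 27305 genes of the table. CCAAT on either strand was found for 34 of the 45 (75.6%), against 39.7% of all genes, and both motifs in the same window for 26 (57.8%), against 7.26%. The search was then limited to TTTGAA that begins in the 60 bases before the start, a limit chosen after the positions were seen. Such a TTTGAA was found for 23 of the 45 (51.1%), against 3.76% of all genes. In CEP55, NDC80, SMC2 and SPC25 it began 3 bases before the start and so ran past it. Genes with more than 1 start have more than 1 window.

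Genes with and without the motif overlapped in their change. The 34 genes with TTTGAA had a median log2 change of -0.56, with 7 lower and 0 higher, and the 11 without had a median of -0.29, with 2 lower and 1 higher. For TTTGAA that begins in the 60 bases before the start the medians were -0.54 with it and -0.54 without. Of the 23 genes with it 4 were lower, and of the 22 without it 5 were. The lower genes NUSAP1, ECT2, NCAPD2, NCAPH and BUB1 had no TTTGAA in that stretch. The 100 bases before the start are shown for 4 genes that were lower (BUB1B, HMMR, ANLN and KIF23) and for 5 that stayed within 2-fold (PLK1, CCNB2, PRC1, CENPA and MKI67). The calls are those of TPM as deposited. With the GC trend removed the 4 lower genes were also within 2-fold (-0.83, -0.69, -0.74 and -0.95 in that order). All 9 were chosen for having TTTGAA there, to show the element in genes with and without a call. Capitals mark TTTGAA or CCAAT on either strand (TTCAAA and ATTGG on the other strand). The TTTGAA and ATTGG of MKI67 overlap, as do CCAAT and ATTGG in HMMR.
BUB1B, lower, chr15:40160969-40161068, plus strand: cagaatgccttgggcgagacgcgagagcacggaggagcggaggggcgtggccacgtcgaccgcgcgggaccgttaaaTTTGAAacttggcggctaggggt
HMMR, lower, chr5:163460532-163460631, plus strand: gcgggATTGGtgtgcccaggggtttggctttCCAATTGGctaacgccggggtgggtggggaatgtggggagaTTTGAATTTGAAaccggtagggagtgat
ANLN, lower, chr7:36389762-36389861, plus strand: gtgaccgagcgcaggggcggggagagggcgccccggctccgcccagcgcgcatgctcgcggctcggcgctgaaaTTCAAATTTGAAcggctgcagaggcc
KIF23, lower, chr15:69414249-69414348, plus strand: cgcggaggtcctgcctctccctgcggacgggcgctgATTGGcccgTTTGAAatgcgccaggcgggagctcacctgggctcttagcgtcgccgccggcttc
PLK1, within 2-fold, chr16:23678789-23678888, plus strand: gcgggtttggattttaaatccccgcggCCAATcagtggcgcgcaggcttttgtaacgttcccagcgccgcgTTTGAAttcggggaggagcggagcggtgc
CCNB2, within 2-fold, chr15:59105046-59105145, plus strand: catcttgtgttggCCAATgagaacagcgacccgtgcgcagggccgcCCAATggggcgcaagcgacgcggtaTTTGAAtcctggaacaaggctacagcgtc
PRC1, within 2-fold, chr15:90994536-90994635, minus strand: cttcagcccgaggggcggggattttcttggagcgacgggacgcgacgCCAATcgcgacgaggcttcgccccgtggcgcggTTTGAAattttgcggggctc
CENPA, within 2-fold, chr2:26785956-26786055, plus strand: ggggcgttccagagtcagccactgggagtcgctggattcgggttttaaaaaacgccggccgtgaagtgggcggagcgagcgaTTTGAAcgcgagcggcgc
MKI67, within 2-fold, chr10:128126424-128126523, minus strand: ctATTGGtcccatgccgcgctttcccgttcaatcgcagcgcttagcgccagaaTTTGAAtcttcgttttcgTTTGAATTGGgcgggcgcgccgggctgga
The element begins 29 bases before the start in both PLK1 and CCNB2, 28 and 22 bases before it in HMMR, 23 in BUB1B, 20 in PRC1 and 18 in CENPA. It begins 55 bases before the start in KIF23, 47 and 29 in MKI67, and 26 and 20 in ANLN. A match of letters is a description and not a bound site.

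Among the kinases, cyclins and phosphatases that trigger mitosis, 0 of 8 were lower by over 2-fold and 2 were higher (25%), against 9.61% and 4.82% of all genes. CDC25B (ENSG00000101224, chr20:3767419-3786768, plus strand on GRCh37), a phosphatase that removes inhibitory phosphates from CDK1, was listed at 18.7 TPM in the control library and 47.1 TPM in PLC-8024-GDF1 (log2 change 1.29). AURKA (ENSG00000087586, chr20:54944445-54967393, minus strand on GRCh37), the Aurora kinase of spindle poles, was listed at 23.7 and 48.4 TPM (log2 change 1.001), which barely passed 2-fold. CDC25C, the paralog of CDC25B, lay in the opposite direction, at 10.3 and 5.90 TPM (-0.71). The TPM ratio of CDC25B over CDC25C was therefore 1.82 in PLC-8024-CTR and 7.98 in PLC-8024-GDF1.

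The core of the mitotic engine lay below 0 but within 2-fold. CDK1, the kinase itself, was listed at 20.7 and 12.4 TPM (-0.69). Its partner CCNB1 was listed at 65.1 and 52.7 TPM (-0.30). CCNB2, the second B-type cyclin of the list, was listed at 34.2 and 29.3 TPM (-0.22). For CCNB1 and CCNB2 the value turned positive with the GC trend removed (0.13 and 0.17). PLK1, the polo kinase, was listed at 48.3 and 32.9 TPM (-0.54). PBK, a mitotic kinase of the MAPKK family, was listed at 11.0 and 7.53 TPM (-0.49).

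All 5 genes of the spindle checkpoint were listed lower in PLC-8024-GDF1, 2 of them by over 2-fold, with MAD2L1 turning to 0.03 once the GC trend was removed. Of all genes, 63.3% were listed lower and 9.61% were so by over 2-fold. BUB1, a checkpoint kinase at kinetochores, was listed at 7.84 and 3.14 TPM (-1.09). BUB1B, which encodes the BUBR1 subunit of the mitotic checkpoint complex, was listed at 5.89 and 1.91 TPM (-1.24). TTK, the MPS1 kinase that starts checkpoint signalling, was listed at 6.63 and 3.37 TPM (-0.80). The summed TPM of the 5 genes was 88.5 and 50.2, the lowest ratio, 0.57, outside the condensin and spindle assembly groups. BUB3, the partner of BUB1 and BUBR1 and by far the most abundant of the 5, was listed at 63.9 and 38.9 TPM (-0.70). MAD2L1, which encodes the MAD2 inhibitor of CDC20, was listed at 4.28 and 2.89 TPM (-0.44). BUB1 and BUB1B were no longer past 2-fold with the GC trend removed (-0.66 and -0.83), and BUB1 was not with rescaled TPM either (-0.93).

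The genes of anaphase onset, which the checkpoint holds back, were all within 2-fold, and ESPL1 had the lowest value among them. CDC20, the activator of the anaphase-promoting complex, was listed at 114 and 104 TPM (-0.13, and 0.08 with rescaled TPM). UBE2C, the ubiquitin-conjugating enzyme that works with it, was listed at 56.9 and 60.5 TPM (0.09). PTTG1, which encodes securin, the inhibitor of separase, was listed at 173 and 207 TPM (0.26). ESPL1, which encodes separase, was listed at 11.0 and 5.69 TPM (-0.84). The ratio of PTTG1 over ESPL1 was 15.7 in PLC-8024-CTR and 36.4 in PLC-8024-GDF1.

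Subunits of 1 complex moved apart in several cases, while other pairs shifted less. The ratio of NUF2 over NDC80 was 0.705 in PLC-8024-CTR and 0.531 in PLC-8024-GDF1. That of NCAPH over SMC2 was 9.70 and 6.91, and that of CCNB1 over CDK1 was 3.15 and 4.24. In the chromosomal passenger complex, which corrects faulty attachments, the kinase AURKB was the most abundant of all 53 genes in both libraries, at 178 and 255 TPM (0.52). Its 3 partners were listed lower. BIRC5, which encodes survivin, was listed at 16.5 and 7.39 TPM (-1.06), a value just past 2-fold that did not pass it after rescaling (-0.88) or removal of the GC trend (-0.84). CDCA8, which encodes borealin, was listed at 12.2 and 7.93 TPM (-0.57). INCENP, the scaffold, was listed at 10.6 and 8.83 TPM (-0.24). AURKB stood at 10.8 times the TPM of BIRC5 in PLC-8024-CTR and at 34.6 times in PLC-8024-GDF1. Over CDCA8 the ratio was 14.6 and 32.2, and over INCENP it was 16.9 and 28.9.

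The 4 subunits of the NDC80 complex, which binds microtubules at the outer kinetochore, lay on both sides of 0. SPC24 was listed at 10.3 and 13.1 TPM (0.32). Its partner SPC25 was listed at 16.4 and 9.35 TPM (-0.75), so the ratio of SPC24 over SPC25 was 0.63 in PLC-8024-CTR and 1.40 in PLC-8024-GDF1. NDC80 was listed at 10.7 and 7.30 TPM (-0.49, and -0.03 with the GC trend removed). NUF2 was listed at 7.54 and 3.88 TPM (-0.81). Their transcripts also differed in GC content, which was 53.3% for SPC24 and 39.9%, 39.6% and 38.8% for SPC25, NDC80 and NUF2. With the GC trend removed SPC24 was at 0.52, SPC25 at -0.29 and NUF2 at -0.34.

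The other centromere genes were listed within 2-fold. CENPA, the histone H3 variant that marks centromeres, was listed at 24.9 and 29.9 TPM (0.25). CENPE, a kinetochore motor, was listed at 1.74 and 0.84 TPM (-0.57), and on the plain TPM ratio, without a pseudocount, its value was -1.05. CENPF, a large kinetochore protein, was listed at 4.49 and 2.45 TPM (-0.67).

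All 7 mitotic kinesins were listed lower, 1 of them by over 2-fold (14.3%), against 63.3% and 9.61% of all genes. KIF11 and KIF18A turned positive once the GC trend was removed (0.11 and 0.12). The median of the 7 was then -0.09, and 0 were lower by over 2-fold. KIF23, the motor of the centralspindlin complex that organises the midzone for cytokinesis, was listed at 8.44 and 2.63 TPM (-1.38). It did not pass 2-fold with the GC trend removed (-0.95). The remaining 6 lay between -0.29 and -0.56. KIF2C, a microtubule depolymerase, was the most abundant, at 31.3 and 25.4 TPM. KIF4A, a chromosome-bound motor, was listed at 15.1 and 10.9 TPM. KIF20A, a cytokinesis motor, was listed at 5.31 and 3.34 TPM. KIF11, KIF15 and KIF18A act on spindle length and chromosome alignment and were all under 5 TPM in both libraries. KIF11 was listed at 4.84 and 3.57 TPM. KIF15 was listed at 2.26 and 1.21 TPM. KIF18A, the least abundant of the 53 in PLC-8024-CTR, was listed at 1.44 and 0.91 TPM.

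NUSAP1 (ENSG00000137804, chr15:41612992-41673248, plus strand on GRCh37) had the lowest value of the 53 genes with a pseudocount of 1, and ECT2 had it with a pseudocount of 0.1 (-3.49, beside -3.10 for NUSAP1) and on the plain ratio. It encodes a microtubule-bundling protein of the spindle and was listed at 20.2 TPM in the control library and 2.26 TPM in PLC-8024-GDF1 (-2.70), a plain ratio of 8.90. By abundance it ranked 19 of the 53 genes in PLC-8024-CTR and 44 in PLC-8024-GDF1. NUSAP1 shares 195 exon bases (5.40% of its own) with OIP5-AS1 on the same strand, which was listed at 11.8 and 11.0 TPM, and 352 bases with OIP5 on the opposite strand, which was listed at 14.6 and 8.51 TPM.

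The other spindle assembly genes were listed lower by less. HMMR, a spindle pole protein, was listed at 5.44 and 1.87 TPM (-1.16, and -0.69 with the GC trend removed). TPX2, the activator of AURKA, was listed at 38.4 and 25.8 TPM (-0.55), so the ratio of AURKA over TPX2 was 0.62 in PLC-8024-CTR and 1.87 in PLC-8024-GDF1. DLGAP5 was listed at 8.75 and 6.37 TPM (-0.40). ASPM, a spindle pole protein with a transcript of 11085 bases, was listed at 1.92 and 0.995 TPM (-0.55). The value of DLGAP5 turned positive with the GC trend removed (0.07).

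Condensin I, the complex of NCAPD2, NCAPG and NCAPH with SMC2 and SMC4, was listed lower in all 5 subunits. NCAPH and NCAPD2 were so by over 2-fold. Of all genes, 63.3% were listed lower, and 9.61% by over 2-fold. Once the GC trend was removed NCAPG turned to 0.06 and SMC4 was at -0.07. NCAPH (ENSG00000121152, chr2:97001504-97042829, plus strand on GRCh37), the kleisin subunit, was listed at 39.9 and 13.6 TPM (-1.48), and it stayed past 2-fold with rescaled TPM (-1.29) and with the GC trend removed (-1.13). NCAPD2 was listed at 20.8 and 8.41 TPM (-1.21, and -0.97 with the GC trend removed). NCAPG was listed at 10.3 and 7.44 TPM (-0.42). NCAPH stood at 3.89 times the TPM of NCAPG in PLC-8024-CTR and at 1.83 times in PLC-8024-GDF1. SMC2 was listed at 4.11 and 1.97 TPM (-0.78), and it passed 2-fold on the plain ratio (-1.06). SMC4 was listed at 3.94 and 2.39 TPM (-0.54).

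The general proliferation markers of this group were not lowered alike. TOP2A, the topoisomerase that untangles sister chromatids, was listed at 12.6 and 8.0 TPM (-0.60). MKI67, which encodes the Ki-67 antigen, was listed at 6.07 and 6.64 TPM (0.11), on the positive side under each scaling. Its transcript, at 12716 bases, is the longest of the 53.

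Cytokinesis genes covered the widest range. ECT2 (ENSG00000114346, chr3:172468472-172539264, plus strand on GRCh37), the exchange factor that activates RhoA at the division plane, was listed at 10.3 TPM in the control library and 0.83 TPM in PLC-8024-GDF1 (-2.63), a plain ratio of 12.4, and it was the least abundant of the 53 in PLC-8024-GDF1. ANLN, which encodes the contractile ring protein anillin, was listed at 5.49 and 1.82 TPM (-1.20, and -0.74 with the GC trend removed). PRC1, the bundler of midzone microtubules, was level, at 33.6 and 33.4 TPM (-0.01, and 0.19 with rescaled TPM). CEP55, which acts in abscission, was listed at 11.1 and 7.61 TPM (-0.49). The ratio of PRC1 over ECT2 was 3.25 in PLC-8024-CTR and 40.1 in PLC-8024-GDF1.

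Of the 2 transcription factors that act on these genes, MYBL2 was close to level and FOXM1 lay below 0 but within 2-fold. MYBL2, which joins MuvB in S and G2 phase, was listed at 139 and 147 TPM (0.07). FOXM1, which activates G2 and M phase genes, was listed at 40.1 and 31.9 TPM (-0.32). Of 11 genes of the DREAM and MuvB complexes, 1 was lower (9.09%, against 9.61% of all genes). That gene was E2F5, at 10.6 and 3.85 TPM (-1.26, and within 2-fold with the GC trend removed). LIN37 was listed at 17.5 and 24.8 TPM (0.48). E2F4 was listed at 40.8 and 50.9 TPM (0.31). The median of the 11 was -0.16 as deposited and 0.05 with rescaled TPM. The 5 most abundant of the 11 within 2-fold were TFDP1 (-0.16), E2F4 (0.31), LIN37 (0.48), TFDP2 (0.30) and RBBP4 (-0.10).

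The 4 genes that reached 100 TPM in both (AURKB, PTTG1, MYBL2 and CDC20) summed to 605 TPM in the control library and 713 TPM in PLC-8024-GDF1. AURKB (178 and 255 TPM) made most of that difference, and CDC20 lay below 0. The other 49 summed to 845 and 653 TPM. All 53 together summed to 1450 and 1366 TPM, a ratio of 0.94. The order of abundance was kept to a large degree (Spearman's rho 0.91 across the 53 genes, which are not independent replicates).

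Low GC content went with lower values, both among the mitotic genes and across the table. The GC content of the longest transcript was 43.1% at the median of the 53 and 49.4% at the median of 11792 protein-coding genes. Spearman's rho between the log2 change and GC content was 0.36 across the 53 genes and 0.33 across the 11792. For transcript length it was -0.37 and -0.18. Of the 53, 30 lay in the lowest 2 of 5 equal groups of protein-coding genes by GC content and 9 in the highest 2.

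Within each of these GC groups the mitotic genes were set beside all genes of like GC content. At the lowest GC content (29.2% to 41.0%), 3 of 20 mitotic genes were lower against 14% of all genes and 0 were higher against 1.74%, and the medians were -0.59 and -0.48. In the next group (41.0% to 46.2%), 4 of 10 were lower against 13.5% and 0 higher against 2.37%, with medians of -0.63 and -0.41. In the middle group (46.2% to 52.7%), 3 of 14 were lower and 1 higher against 12.1% and 3.44%, with medians of -0.42 and -0.28. The mitotic median was thus below that of all genes in these 3 groups. In the upper 2 groups 0 of 9 were lower, against 8.27% and 4.87%, and CDC25B, in the highest, was the 1 gene that was higher, against 4.45% and 8.31%. What gave the trend with GC content was not tested.

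**Figure D2:**
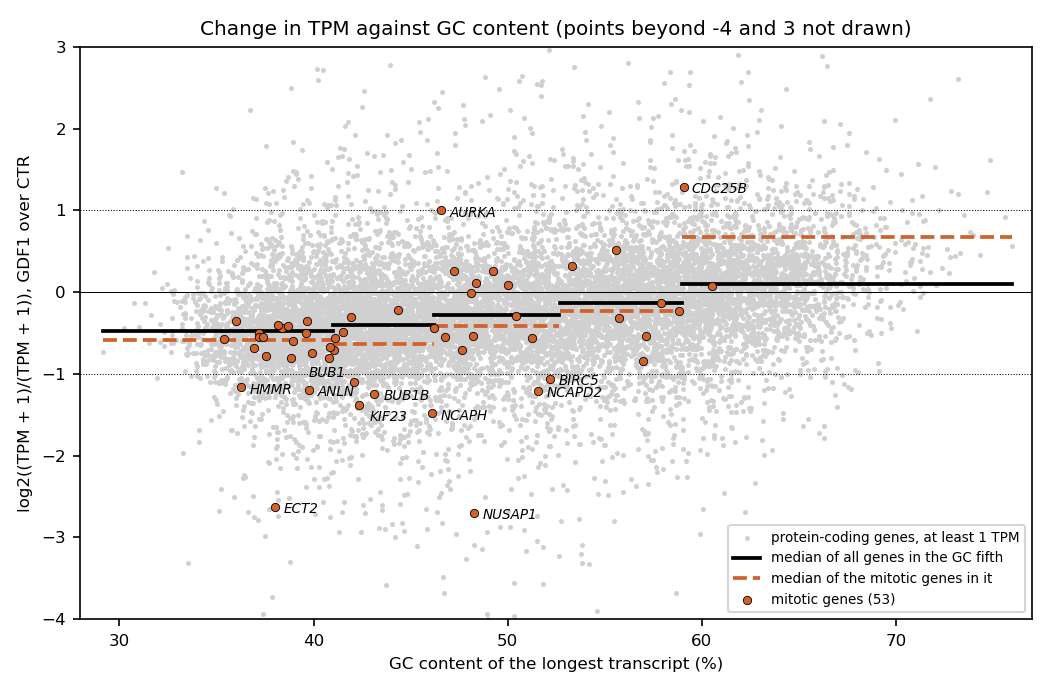
Log2 change of PLC-8024-GDF1 over the control library (vertical axis, pseudocount of 1) against GC content of the longest transcript in percent, for protein-coding genes with at least 1 TPM (grey) and the 53 mitotic genes (orange, named where past 2-fold, dotted lines); each point is a gene from 1 library per condition. Medians of all genes (black) climb from -0.48 in the lowest to 0.11 in the highest of 5 GC groups, and the medians of the mitotic genes (dashed) lie below them in all but the highest, which holds CDC25B and MYBL2.

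**Figure D3:**
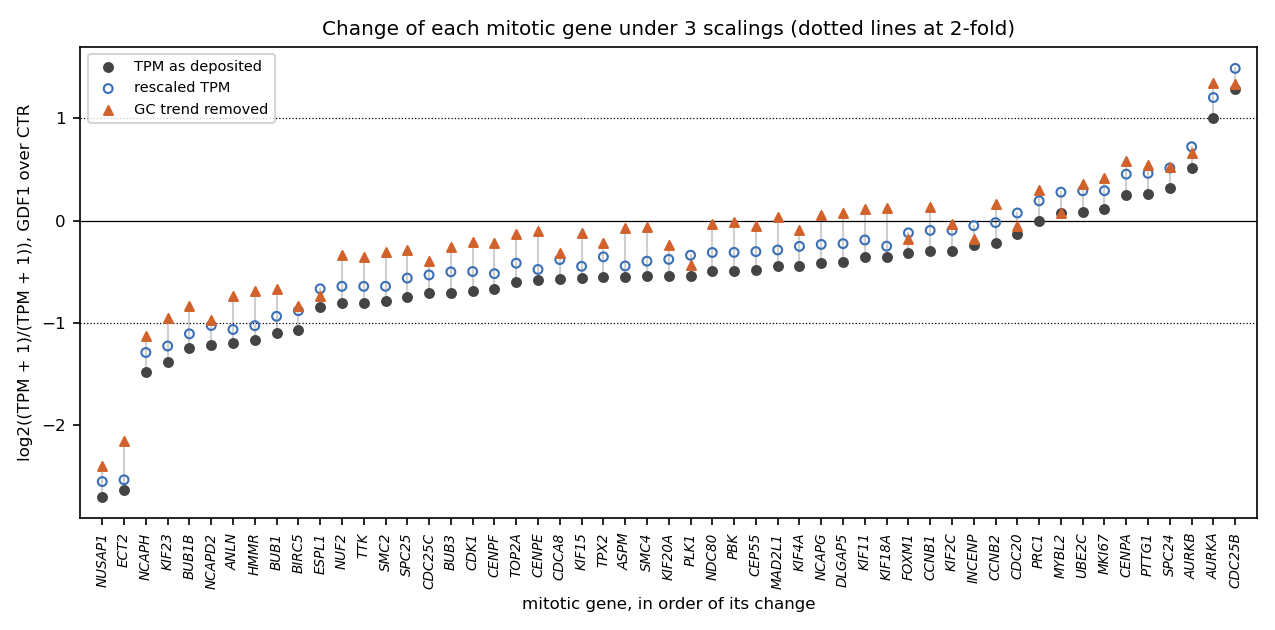
Log2 change of each of the 53 mitotic genes, in order, from TPM as deposited (black circles), rescaled TPM (open circles) and with the GC trend removed (orange triangles); the dotted lines mark 2-fold and there are no replicates. NUSAP1, ECT2 and NCAPH lie under the lower line and AURKA and CDC25B over the upper line in each of the 3 series, while 7 other genes leave the region under the lower line once the GC trend is removed.

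The other genes of the mitotic pathway were taken from lists by role that named 123 genes, 118 of them with at least 1 TPM. Of these, 15 were lower (12.7%) and 1 was higher (0.847%), beside the 9.61% and 4.82% of all genes, and the median was -0.40. With rescaled TPM 9 were lower and 2 higher, shares of 7.63% and 1.69% against 6.85% and 6.97% of all genes. With the GC trend removed 4 were lower and 3 higher, shares of 3.39% and 2.54% against 5.81% and 5.61%. With the trend removed, 70 of the 118 still lay below 0, beside 5905 of 11792 protein-coding genes. The median of the 118 was then -0.0970.

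Among cyclins and their control, 2 of 14 were lower (14.3%, against 9.61% of all genes). CCNA2, the A-type cyclin of S and G2 phase, was listed at 13.3 and 5.0 TPM (-1.25). GTSE1, a microtubule-bound regulator of G2 and M phase, was listed at 14.2 and 6.26 TPM (-1.07). Both stayed within 2-fold with the GC trend removed. CKS1B and CKS2, small subunits bound to CDKs, were the most abundant, at 251 and 151 TPM and at 246 and 189 TPM. The 5 most abundant genes within 2-fold, with their log2 changes, were CKS2 (-0.38), CKS1B (-0.73), ENSA (-0.09), PKMYT1 (0.37) and CDKN3 (-0.59).

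Checkpoint and kinetochore genes outside the 53 held 5 lower genes of 36 (13.9%, against 9.61% of all genes). With rescaled TPM 3 were lower, and with the GC trend removed 2 were (5.56% against 5.81%), ZWILCH and MIS12. ZWILCH, a subunit of the RZZ complex that recruits checkpoint proteins, was listed at 10.8 and 1.10 TPM (-2.50). MIS12, which anchors the outer kinetochore, was listed at 5.73 and 0.63 TPM (-2.04). ZWINT, a kinetochore scaffold, was listed at 25.6 and 9.95 TPM (-1.28). CENPO (16.2 and 6.73 TPM, -1.16) and CENPL (3.54 and 1.19 TPM, -1.05), both of the inner kinetochore, were the other two. Here the 5 most abundant within 2-fold were CENPT (-0.25), CENPW (-0.10), BOD1 (-0.52), MAD2L1BP (-0.58) and MAD1L1 (-0.21).

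In the anaphase-promoting complex and its regulators, 1 of 17 was lower and 1 higher (5.88% each, against 9.61% and 4.82% of all genes). With rescaled TPM, and with the GC trend removed, 0 were lower and 2 higher. ANAPC7, a subunit, was listed at 26 and 61.9 TPM (1.22). FBXO5, which encodes the inhibitor EMI1, was listed at 3.68 and 1.25 TPM (-1.06). The median of the 17 was -0.11 as deposited and 0.09 with rescaled TPM, the highest of the 5 lists of other mitotic genes on both scales. Of those within 2-fold, the 5 most abundant were ANAPC11 (0.31), UBE2S (-0.12), CDC16 (-0.51), ANAPC15 (0.85) and ANAPC5 (0.10).

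Of 14 cohesin and condensin genes, 3 were lower, all of them cohesin genes (21.4%, against 9.61% of all genes). With rescaled TPM 2 were lower, and with the GC trend removed 1 was lower, STAG1, and 1 higher. RAD21, the kleisin of cohesin, was listed at 14.2 and 5.21 TPM (-1.29). SMC3 was listed at 10.3 and 4.11 TPM (-1.14). STAG1 was listed at 3.67 and 0.26 TPM (-1.89). Its paralog STAG2, chosen after its values were seen, lay in the opposite direction, at 3.17 and 5.60 TPM (0.66). NCAPH2, the condensin II counterpart of NCAPH, lay on the other side of 0, at 54.8 and 65.8 TPM (0.26). The 5 most abundant in this list within 2-fold were NCAPH2 (0.26), CDCA5 (0.49), TOP2B (-0.60), NCAPD3 (-0.31) and NCAPG2 (-0.74).

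Among 37 spindle, centrosome and cytokinesis genes with at least 1 TPM, 4 were lower (10.8%, against 9.61% of all genes). With the GC trend removed 1 was lower (2.70% against 5.81%), PLK4. PLK4, the kinase that controls centriole duplication, was listed at 7.42 and 1.57 TPM (-1.71). CKAP5, a microtubule polymerase, was listed at 40.5 and 15.3 TPM (-1.35). FAM83D (13.6 and 5.15 TPM, -1.25) and TUBGCP3 (9.73 and 4.30 TPM, -1.02) were the other two. TACC3, the partner of CKAP5 on spindle fibres, was listed at 86.1 and 107 TPM (0.31). In this list the 5 most abundant within 2-fold were TUBG1 (-0.30), TACC3 (0.31), TUBGCP2 (-0.09), KIF22 (0.13) and TROAP (0.20).

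Genes of earlier cell cycle phases were set beside the mitotic genes. Of 35 DNA replication and S phase genes, 6 were lower (17.1%) and 0 higher, against 9.61% and 4.82% of all genes, with a median of -0.41. RRM2, a subunit of ribonucleotide reductase, was listed at 13.5 and 3.43 TPM (-1.71). TYMS, thymidylate synthase, was listed at 69.5 and 28.8 TPM (-1.24). UHRF1, MCM4, MCM2 and RFC2 were the others, between -1.33 and -1.004. MCM7, the most abundant of the list, was level, at 162 and 167 TPM (0.05). The 5 most abundant S phase genes within 2-fold were MCM7 (0.05), POLD1 (0.48), MCM3 (-0.31), PCNA (-0.43) and TK1 (0.49). Of the 16 genes of G1 control with at least 1 TPM, 4 were lower (25%) and 0 higher, with a median of -0.32 that reversed to 0.0358 among the 12 with at least 5 TPM. CDK2, the kinase of cyclins E and A, was listed at 16.5 and 1.62 TPM (-2.74). CDK4, the kinase of cyclin D, was listed at 197 and 62.0 TPM (-1.65). CDKN1A, which encodes the inhibitor p21, was listed at 35.0 and 33.3 TPM (-0.07). CDKN2B and E2F3 were the other two that were lower. Among the G1 genes within 2-fold the 5 most abundant were CDKN2A (-0.83), CCND1 (0.21), E2F1 (0.14), CDKN1A (-0.07) and CCNE1 (0.20). With the GC trend removed, the share of lower genes was 5.71% for S phase and 12.5% for G1 control, against 5.81% of the 11792 protein-coding genes. No difference between these lists and the 53 genes was tested.

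**Figure D4:**
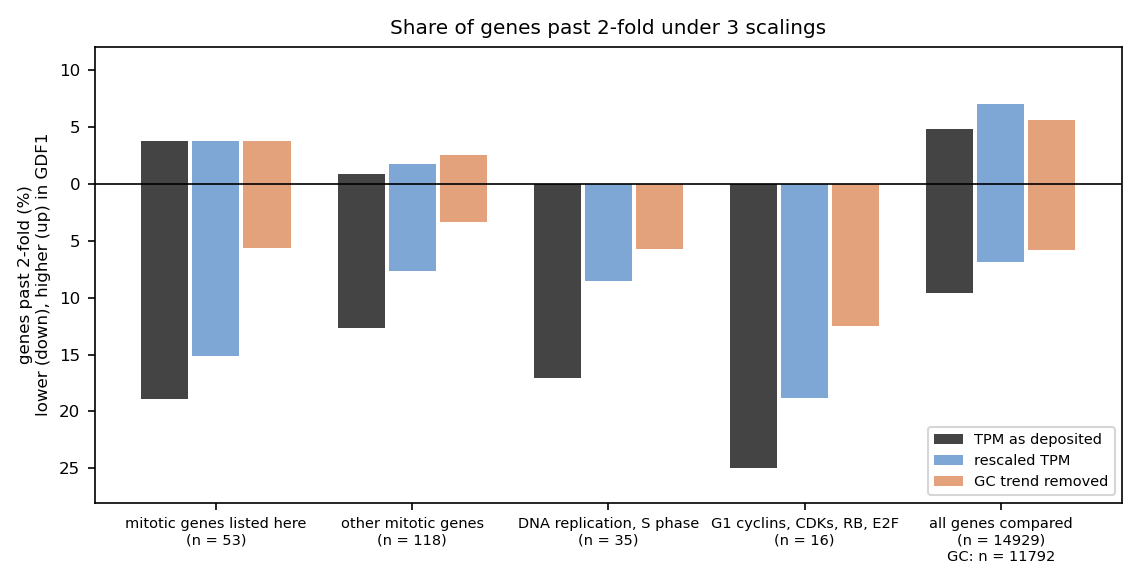
Share of genes past 2-fold, in percent, in the 53 mitotic genes, the other mitotic genes, the S phase and G1 lists and all genes compared, with bars up for higher and down for lower in PLC-8024-GDF1, under TPM as deposited, rescaled TPM and the GC trend removed (1 library per condition, no error bars). The lower share of the 53 genes shrinks from 18.9% to 15.1% and 5.66%. That of all 14929 genes is 9.61% as deposited and 6.85% with rescaled TPM. That of the 11792 protein-coding genes with a GC value is 10.5% as deposited and 5.81% with the GC trend removed.

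Reads shared with related genes were looked for at the level of the files. The 18 annotated pseudogenes and paralogs named after the 53 genes, KIF4B and PTTG2 included, were all at or under 0.15 TPM, and 14 were at 0.0001 TPM in both libraries. Exon bases were shared with another expressed gene on the same strand for 2 genes, NUSAP1 and CENPA, and on the opposite strand for 13. Strand use in the counting is not given in the sources used here, so reads of those 13 and their partners may not be told apart. Left out with CENPA, NUSAP1 took 1 of the 10 lower genes with it and the median stayed at -0.54. Chromosomes 15 and 20, named here for the genes past 2-fold on them, each carried 5 of the 53. Chromosomes 1, 5 and 10 carried at least as many of the 53, and HMMR on chromosome 5 was the only gene past 2-fold there. On chromosome 15, 3 of the 5 were lower (NUSAP1, KIF23 and BUB1B), against 11.1% of its protein-coding genes, whose median was -0.33. Of these, KIF23 and BUB1B were within 2-fold with the GC trend removed (-0.95 and -0.83). On chromosome 20, 2 of the 5 were higher (AURKA and CDC25B, the only 2 of the 53), against 3.94%, with a median of -0.29. The part of genome position was not tested.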

How the data were processed

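RNA-seq was performed on poly(A) RNA, with 1 library from the control line and 1 from the GDF1 line. The authors filtered the reads with Trimmomatic 0.36, aligned them to hg19 with HISAT2 2.1.0, quantified them with StringTie 1.3.3b and deposited 1 TPM value per gene and library. The file headers call it a mean TPM. TPM keeps no depth, so no counting error is given.

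The 53 genes and all lists were chosen with earlier results of these data known. Values were compared as log2((TPM + 1)/(TPM + 1)) over the 14929 genes that reached 1 TPM in either library. Genes past 2-fold were counted. All 53 genes are named, and of the other lists those past 2-fold or among the 5 most abundant. Gene lengths, GC content and overlaps came from GENCODE v44 on GRCh37, which held 55726 of the identifiers. Trends were fitted by lowess with a span of 0.3 over 11792 protein-coding genes. Alternatives were other pseudocounts, minimums and scalings. Trends and correlations were computed with statsmodels 0.14.6 and scipy 1.17.1 on Python 3.11.15, tables with pandas 2.3.3 and numpy 2.4.6, and plots with matplotlib 3.10.9. The scripts were tested on simulated data.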

Additional observations from a re-analysis of the deposited data

How the results depend on the processing

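No paired analysis was possible because there is 1 library on either side, and for that reason no library could be left out. A count was taken as moved when it changed by over 1.5 times, and a median when it changed by over 1.5 times or in sign. The joint removal of the GC and length trends was chosen after seeing the data. TPM carries no depth, which limits the low genes most.

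For the 53 genes, the 10 lower genes became 3 with the GC trend, 4 with the length trend and 3 with both trends removed. The median of -0.54 became -0.35 with rescaled TPM, -0.12, -0.24 and -0.0924 with these trends removed. It stayed negative and the 2 higher genes stayed 2 under every alternative run. Every alternative raised the values of AURKA and CDC25B or left them as they were, so none could take them below 2-fold. No gene past 2-fold changed sign.

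For the other mitotic genes, 15 lower genes became 26 with a pseudocount of 0.1, 27 with the plain ratio, 9 with rescaled TPM, and 4, 7 and 5 with the GC, length and both trends removed. The 1 higher gene became 2, 3, 2 and 3 under the latter 4 settings, and the median of -0.40 became -0.23, -0.10, -0.17 and -0.0805. Of S phase genes, 6 lower became 10 with either other ratio, 3 with rescaled TPM, and 2, 3 and 3 with the trends removed, with medians of -0.22, -0.0593, -0.24 and -0.0383. Of G1 genes, 4 lower became 2 with at least 5 TPM and 2 with each trend removed. Their median of -0.32 reversed to 0.0358 with at least 5 TPM and was -0.13 with no filter, -0.16 with rescaled TPM, and -0.0512, -0.0053 and -0.0314 with the trends removed. For DREAM and MuvB genes 1 lower became 3 with either other ratio and 0 with each trend removed, and the median of -0.16 reversed to 0.10 with at least 5 TPM, 0.0465 with rescaled TPM, and 0.19, 0.0729 and 0.21 with the trends removed. The cause of these differences was not tested; rescaling and trend removal centre all genes by construction. Among all genes, the called genes that were higher made up 33.4% as deposited and 50.4% with rescaled TPM. Among the 11792 protein-coding genes they made up 27.8% as deposited and 49.1% with the GC trend removed.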
